A study of Homo sapiens with 24 samples.

Results

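The genes of cholesterol and fatty acid synthesis were examined in 2 human acute myeloid leukemia lines exposed to 8CA (8-chloro-adenosine) or 8AA (8-amino-adenosine), adenosine analogs whose purine ring bears chlorine in 8CA and an amine in 8AA. The set held 34 of the 23354 genes in the count table and was taken by gene symbol, as 31 genes that make, move or regulate sterols and fatty acids and 3 targets of the liver X receptors (LXR), ABCA1, ABCG1 and MYLIP. All 34 genes passed the filter on low counts in MV4-11. In KG-1a 33 passed, and ACSS2 did not. MV4-11 and KG-1a are established lines, both listed as wild type, and both were grown in serum-containing Iscove's medium. Each line was left untreated, treated with 1 µM 8CA or treated with 1 µM 8AA, and RNA was taken at 8 h or 24 h, which gave 12 groups of 2 libraries and 24 libraries in all. The replicates carried the letters A and B, nothing said that they came from separate cultures, and p-values therefore measure only the spread between these libraries.

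Sterols and fatty acids are both built from acetyl-CoA in the cytosol. The sterol branch runs through mevalonate, isoprenoid units, squalene and lanosterol to cholesterol, and the fatty acid branch through malonyl-CoA to palmitate and its elongated and desaturated products. Both branches are switched on by the sterol regulatory element binding proteins (SREBP), membrane-bound transcription factors encoded by SREBF1 and SREBF2, which INSIG1 holds in the endoplasmic reticulum when sterols are plentiful. The LXR receptors are activated by oxysterols and drive export of cholesterol, so their targets often move opposite to the SREBP targets when the sterol content of a cell changes. Leukemic blasts use both synthesis and uptake of cholesterol.

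Libraries held from 18633963 to 24520078 counted reads. The replicates of 11 groups differed by a chi-square per degree of freedom of 1.432 to 5.201 over genes, and those of KG-1a with 8AA at 24 h by 12.25, so results from that pair are given with and without each of its libraries where they depend on it. The line labels were checked against markers. FLT3, a receptor tyrosine kinase, lay at 426 to 621 CPM (counts scaled to a common library total) in the MV4-11 libraries and at most 1.32 in KG-1a, and CD34, a progenitor surface antigen, at 325 to 629 CPM in KG-1a and at most 0.175 in MV4-11. HOXA9, listed as a marker of MV4-11, was higher in KG-1a, and the myeloid genes SPI1 and CD33 were at most 7.81 and 1.02 CPM in KG-1a. Of 6 markers of other cell types, 2 or 3 were at 0 in each group, and their summed level ranged from 18.5 to 29.3 CPM in MV4-11 and from 26.4 to 42.3 CPM in the KG-1a groups other than 8AA at 24 h, where it was 85.1 and 71.8 CPM. EPCAM was at 0 in every library and CD3E in every MV4-11 library. Most of that rise was CD3E, which encodes a CD3 chain of the T cell receptor complex. CD3E averaged 72.7 CPM with 8AA at 24 h and 36.5 CPM in the untreated cells of that time. Its part in the results of that group was not tested.

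In untreated cells, the members spanned a wide range of levels, given here as CPM per kb of exon so that genes can be compared. SCD, which introduces the first double bond into saturated fatty acids, stood at 182 CPM per kb in MV4-11 and 198 in KG-1a. FADS2, the delta-6 desaturase, was the highest member in KG-1a at 210.1 CPM per kb and was 106 in MV4-11. FASN, which builds palmitate, stood at 148 and 97.9 CPM per kb in the same order of lines. At the other end lay ELOVL6, which elongates palmitate, at 0.185 CPM per kb in MV4-11 against 25.2 in KG-1a, and ACSS2, which makes acetyl-CoA from acetate, at 11.3 in MV4-11 against 0.0545 in KG-1a. The untreated lines were also tested against each other in a fit of all 24 libraries, with edgeR's quasi-likelihood test and Benjamini-Hochberg adjustment over all genes tested, as for every adjusted p here. In that fit 22 members were lower in MV4-11 (background: 44.3% of the 14055 genes tested) and 8 were higher (43.1%). DHCR7, the last enzyme of cholesterol synthesis, differed by -2.84 on the log2 scale, SC5D, which acts just before it, by -1.93, and ABCG1, a sterol exporter, by -4.85, each lower in MV4-11.

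The promoters of members were searched for short sequences, and some of their windows are shown. RefSeq promoter windows on GRCh38.p14, from 250 bases before the transcription start to 50 after it, were found for 29 of the 34 members, with 39 windows between them. FDFT1, SQLE, ABCG1, ACAT2 and FASN had none. CCAAT on either strand, the letters bound by the factor NF-Y that works beside SREBP, was present in 66.7% of the member windows and in 34.6% of all 35116 windows, and 22 of the 29 members had it in at least 1 window. CYP51A1, FADS1, PMVK, ELOVL6, AACS, SREBF1 and ABCA1 had no match, and the LXR target MYLIP had 2. Of the LXR targets only ABCA1 and MYLIP had a window, too few to tell whether CCAAT separates them from the synthesis genes. Some windows of the same gene overlap, as for ACLY and SC5D, so a match can be counted in both. TCACCCCAC, the core of the classical sterol regulatory element, was searched on both strands and held by 1 member, SREBF2, and by 0.43% of all windows. The LXR repeat of AGGTCA and AGGTCA with 4 bases between was held by 0 members and 0.0199% of windows. A variant with GGTTA and CGGTCA 4 bases apart is known from the ABCA1 promoter, so its match in ABCA1 was fixed in advance. No other member held it, and 0.0114% of all windows did. Sterol regulatory elements vary in sequence, so windows without these letters can hold other forms. In the sequences below, written 5′ to 3′ on the strand of the gene, capitals mark CCAAT or its reverse complement ATTGG, the element in SREBF2 and the repeat in ABCA1. SREBF2 and INSIG1 are regulators, HMGCS1 is an early and DHCR7 the last sterol enzyme, SCD is the highest member per kb in MV4-11, and ABCA1 is an LXR target.
SREBF2, chr22:41832855-41833154, plus strand: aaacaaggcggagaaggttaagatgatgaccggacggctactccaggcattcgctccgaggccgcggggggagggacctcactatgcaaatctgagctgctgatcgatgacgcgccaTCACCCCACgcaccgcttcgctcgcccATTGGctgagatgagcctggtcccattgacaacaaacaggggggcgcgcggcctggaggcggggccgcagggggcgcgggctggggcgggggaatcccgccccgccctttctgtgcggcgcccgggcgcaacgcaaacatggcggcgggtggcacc
INSIG1, chr7:155297628-155297927, plus strand: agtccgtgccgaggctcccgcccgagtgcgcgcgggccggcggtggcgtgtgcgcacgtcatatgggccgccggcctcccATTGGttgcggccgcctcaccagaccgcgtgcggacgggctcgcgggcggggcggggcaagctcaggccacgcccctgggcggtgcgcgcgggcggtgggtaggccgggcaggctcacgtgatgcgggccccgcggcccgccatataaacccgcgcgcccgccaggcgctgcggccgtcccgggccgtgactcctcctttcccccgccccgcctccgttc
HMGCS1, chr5:43313363-43313662, minus strand: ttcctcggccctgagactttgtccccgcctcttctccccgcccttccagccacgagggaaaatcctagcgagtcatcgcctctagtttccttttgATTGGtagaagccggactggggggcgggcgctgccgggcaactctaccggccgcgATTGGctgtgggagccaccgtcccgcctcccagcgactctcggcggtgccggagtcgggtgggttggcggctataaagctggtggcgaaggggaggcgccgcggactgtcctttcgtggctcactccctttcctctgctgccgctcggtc
DHCR7, chr11:71448344-71448643, minus strand: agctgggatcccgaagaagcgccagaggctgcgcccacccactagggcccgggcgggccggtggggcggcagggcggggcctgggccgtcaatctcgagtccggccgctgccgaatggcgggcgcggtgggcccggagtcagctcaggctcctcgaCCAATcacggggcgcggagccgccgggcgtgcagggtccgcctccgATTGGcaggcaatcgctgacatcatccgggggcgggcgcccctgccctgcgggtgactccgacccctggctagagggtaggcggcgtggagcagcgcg
SCD, chr10:100346983-100347282, plus strand: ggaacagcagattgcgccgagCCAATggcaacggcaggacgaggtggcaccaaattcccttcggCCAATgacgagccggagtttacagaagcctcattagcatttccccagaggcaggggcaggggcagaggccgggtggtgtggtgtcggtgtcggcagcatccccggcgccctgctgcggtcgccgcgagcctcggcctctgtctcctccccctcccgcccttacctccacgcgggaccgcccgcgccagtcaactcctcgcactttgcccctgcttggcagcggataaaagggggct
ABCA1, chr9:104928106-104928405, minus strand: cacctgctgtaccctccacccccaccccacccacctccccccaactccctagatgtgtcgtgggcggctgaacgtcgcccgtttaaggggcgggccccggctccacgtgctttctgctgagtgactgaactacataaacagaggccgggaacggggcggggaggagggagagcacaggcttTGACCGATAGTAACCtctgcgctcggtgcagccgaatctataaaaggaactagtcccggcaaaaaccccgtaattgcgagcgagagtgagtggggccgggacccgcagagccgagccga
HMGCS1 and DHCR7 each have a second window, which held no CCAAT and is not shown. In the windows shown, the matches in HMGCS1 began at -155 and -100 from the start, in DHCR7 at -94 and -48, and in SCD at -229 and -186. The SREBF2 window held the element at -133 and the CCAAT letters at -106, and the INSIG1 window 1 match at -170. The repeat in ABCA1 began at -69 and read on the strand opposite to the gene, and that window held no CCAAT. A match describes these letters in this window and says nothing of binding in these cells.

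After 24 h of 8CA, nearly the whole synthesis set was lower in both lines. In MV4-11, 31 of 34 members were lower and 0 higher (background: 22.7% lower and 21.2% higher of 12800 genes tested), with a median log2 fold change of -0.76 over the members and of 0.00216 over all genes. In KG-1a, 27 of 33 were lower and 4 higher (background: 24% and 23.4% of 12711 genes), with a median of -0.59. The members that were lower with 8CA in both lines numbered 26 of 33 tested in both (background: 15.7% of genes tested in both). With 8AA at the same dose and time the decreases were smaller: 19 members were lower and 0 higher in MV4-11 (background: 15.3% and 13.9%) with a median of -0.28, and 23 were lower and 2 higher in KG-1a (background: 26.6% and 25.4%) with a median of -0.36. Without replicate A or replicate B of the KG-1a 8AA pair, 24 or 23 members were lower and 2 or 3 higher. The members lower with 8AA in both lines numbered 17 of 33 (background: 10.9%) and were 10 sterol enzymes (HMGCS1, IDI1, FDPS, FDFT1, SQLE, LSS, CYP51A1, EBP, DHCR7 and ACAT2), the regulator INSIG1 and 6 fatty acid genes (FASN, ACACA, ACLY, SCD, FADS1 and FADS2). The drugs share the untreated libraries of each line and time, so their comparisons are not independent. In bulk RNA, fewer expressing cells and less RNA per cell cannot be told apart.

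**Figure D1:**
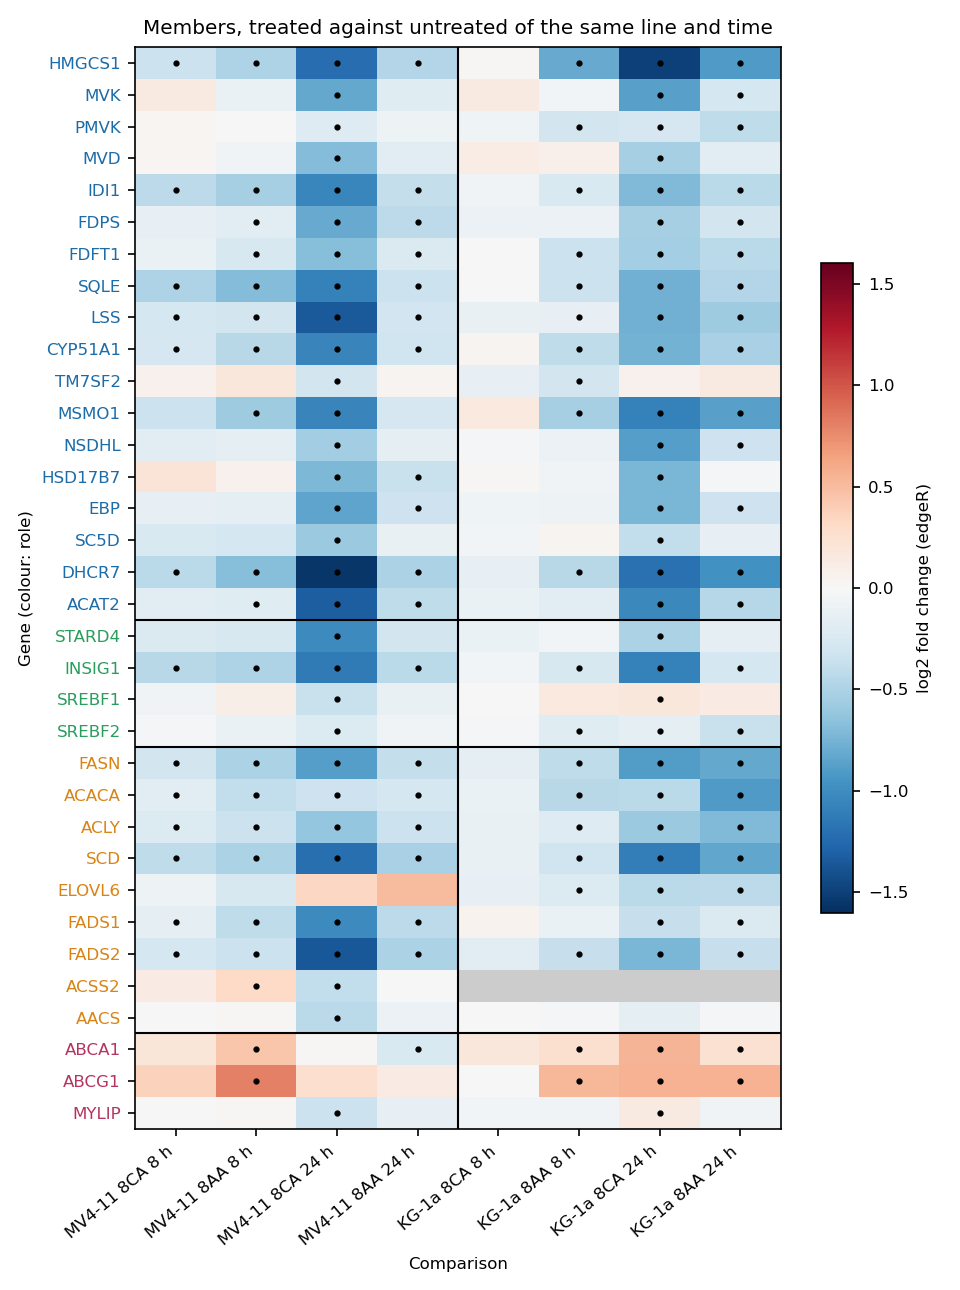
Log2 fold change of each of the 34 members (rows, name coloured by role) in treated against untreated cells of the same line and time (columns), on a colour scale from -1.6 to 1.6, with a black dot where the adjusted p was below 0.05 and grey where the gene was not tested. The 24 h 8CA columns are blue from HMGCS1 to ACAT2 with the exception of TM7SF2 in KG-1a, the KG-1a 8CA column at 8 h holds no dot, and the bottom rows ABCA1 and ABCG1 are mostly red.

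All 18 sterol synthesis enzymes were lower with 8CA at 24 h in MV4-11 and 17 of 18 in KG-1a, where TM7SF2, a sterol C14 reductase, was the exception at 0.07. Of all genes tested, 22.7% were lower in MV4-11 and 24% in KG-1a. In MV4-11 the call of PMVK was lost in 8 of 13 alternative runs and that of TM7SF2 in 5 of 13. Among these were the runs without either untreated library, with DESeq2, and without 1 of the 8CA libraries, replicate A for PMVK and replicate B for TM7SF2. With 8AA, 11 were lower in MV4-11 and 14 in KG-1a (background: 15.3% and 26.6% lower), and 0 were higher in either. The KG-1a calls of MVK and NSDHL with 8AA were lost in 8 of 13 and 3 of 13 alternative runs. In MV4-11 the 8AA calls of HSD17B7 and IDI1 were lost in 3 of 13 and 1 of 13. HMGCS1, which condenses acetyl-CoA and acetoacetyl-CoA into HMG-CoA, read 109.9 and 131 CPM in the untreated MV4-11 libraries at 24 h, 51.1 and 52.4 under 8CA and 84.9 and 89.2 under 8AA, where CPM are scaled by the TMM method within a line. In KG-1a, HMGCS1 stood at 210.3 and 207 CPM untreated, 72.9 and 74.8 under 8CA and 109 and 114 under 8AA. In both lines the groups did not overlap, with 8CA lowest and 8AA between. The 8CA level of HMGCS1 was 0.431 times the untreated level in MV4-11, a log2 fold change of -1.22 (SE 0.072, adjusted p = 8.3e-09), and 0.354 times in KG-1a, -1.498 (SE 0.048, adjusted p = 3.9e-12), the largest decrease of any member in that line. The 8AA level of HMGCS1 was 0.724 times untreated in MV4-11, -0.47 (SE 0.07, adjusted p = 0.00016), and 0.535 times in KG-1a, -0.90 (SE 0.047, adjusted p = 1.1e-09).

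DHCR7, which reduces 7-dehydrocholesterol to cholesterol, had the largest decrease of the set. It read 43.7 and 49.2 CPM in untreated MV4-11 at 24 h, 15.9 and 15.6 under 8CA and 31.5 and 34.04 under 8AA. In KG-1a, DHCR7 stood at 258 and 263 CPM untreated, 117 and 109.6 under 8CA and 143 and 122 under 8AA. None of the groups overlapped within a line, and the 8AA libraries of KG-1a lay just above those with 8CA. For DHCR7 the log2 fold change with 8CA was -1.56 (SE 0.078, adjusted p = 1.6e-09) in MV4-11 and -1.20 (SE 0.065, adjusted p = 1.6e-09) in KG-1a. With 8AA it was -0.50 (SE 0.073, adjusted p = 0.00011) and -0.97 (SE 0.064, adjusted p = 9.6e-09).

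LSS, which closes the sterol rings to form lanosterol, read 78.8 and 85.2 CPM in untreated MV4-11, 31.0 and 33.6 under 8CA and 68.1 and 64.9 under 8AA. In KG-1a, LSS stood at 99.6 and 101 CPM untreated, 58.7 and 59.3 under 8CA and 68.0 and 67.4 under 8AA. For LSS the log2 fold change was -1.34 (SE 0.068, adjusted p = 1.7e-09) with 8CA and -0.30 (SE 0.065, adjusted p = 0.0025) with 8AA in MV4-11. In KG-1a the 8CA and 8AA values of LSS lay closer together, at -0.77 and -0.57. ACAT2, the cytosolic thiolase that makes acetoacetyl-CoA, read 95.1 and 100.2 CPM in untreated MV4-11, 39.5 and 39.0 under 8CA and 68.8 and 78.9 under 8AA. In KG-1a, ACAT2 stood at 105 and 107 CPM untreated, 50.5 and 53.5 under 8CA and 82.9 and 70.9 under 8AA. For both genes the 3 groups of each line did not overlap. For ACAT2 the log2 fold change with 8CA was -1.31 (SE 0.066, adjusted p = 1.6e-09) in MV4-11 and -1.03 (SE 0.066, adjusted p = 1.1e-08) in KG-1a. The ACAT2 interval overlaps TCP1 on the opposite strand, and use of strand in the counting is not given in the sources used here.

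The other 14 sterol enzymes followed with 8CA at 24 h, by log2 fold changes from -1.08 (SQLE, squalene epoxidase) to -0.20 (PMVK, phosphomevalonate kinase) in MV4-11. In KG-1a those that were lower ranged from -1.08 (MSMO1, the C4 methyl sterol oxidase) to -0.26 (PMVK). The steps of the mevalonate branch before squalene were all lower in both lines. MVK, mevalonate kinase, fell by 0.82 and 0.87 on the log2 scale in MV4-11 and KG-1a, MVD, the decarboxylase, by 0.70 and 0.53, IDI1, the isomerase, by 1.04 and 0.71, and FDPS, which makes farnesyl diphosphate, by 0.81 and 0.53. FDFT1, squalene synthase, fell by 0.68 and 0.55. In the later steps, CYP51A1, lanosterol demethylase, fell by 1.06 and 0.75, NSDHL, a sterol dehydrogenase, by 0.56 and 0.88, HSD17B7, a keto sterol reductase, by 0.71 and 0.73, EBP, a sterol isomerase, by 0.84 and 0.73 and SC5D by 0.59 and 0.39. FDPS, HSD17B7 and CYP51A1 have pseudogenes with which reads may have been shared, as do FADS2, SCD and AACS among the fatty acid genes. TM7SF2, lower by 0.29 with 8CA at 24 h in MV4-11, overlaps VPS51 on the same strand.

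**Figure D2:**
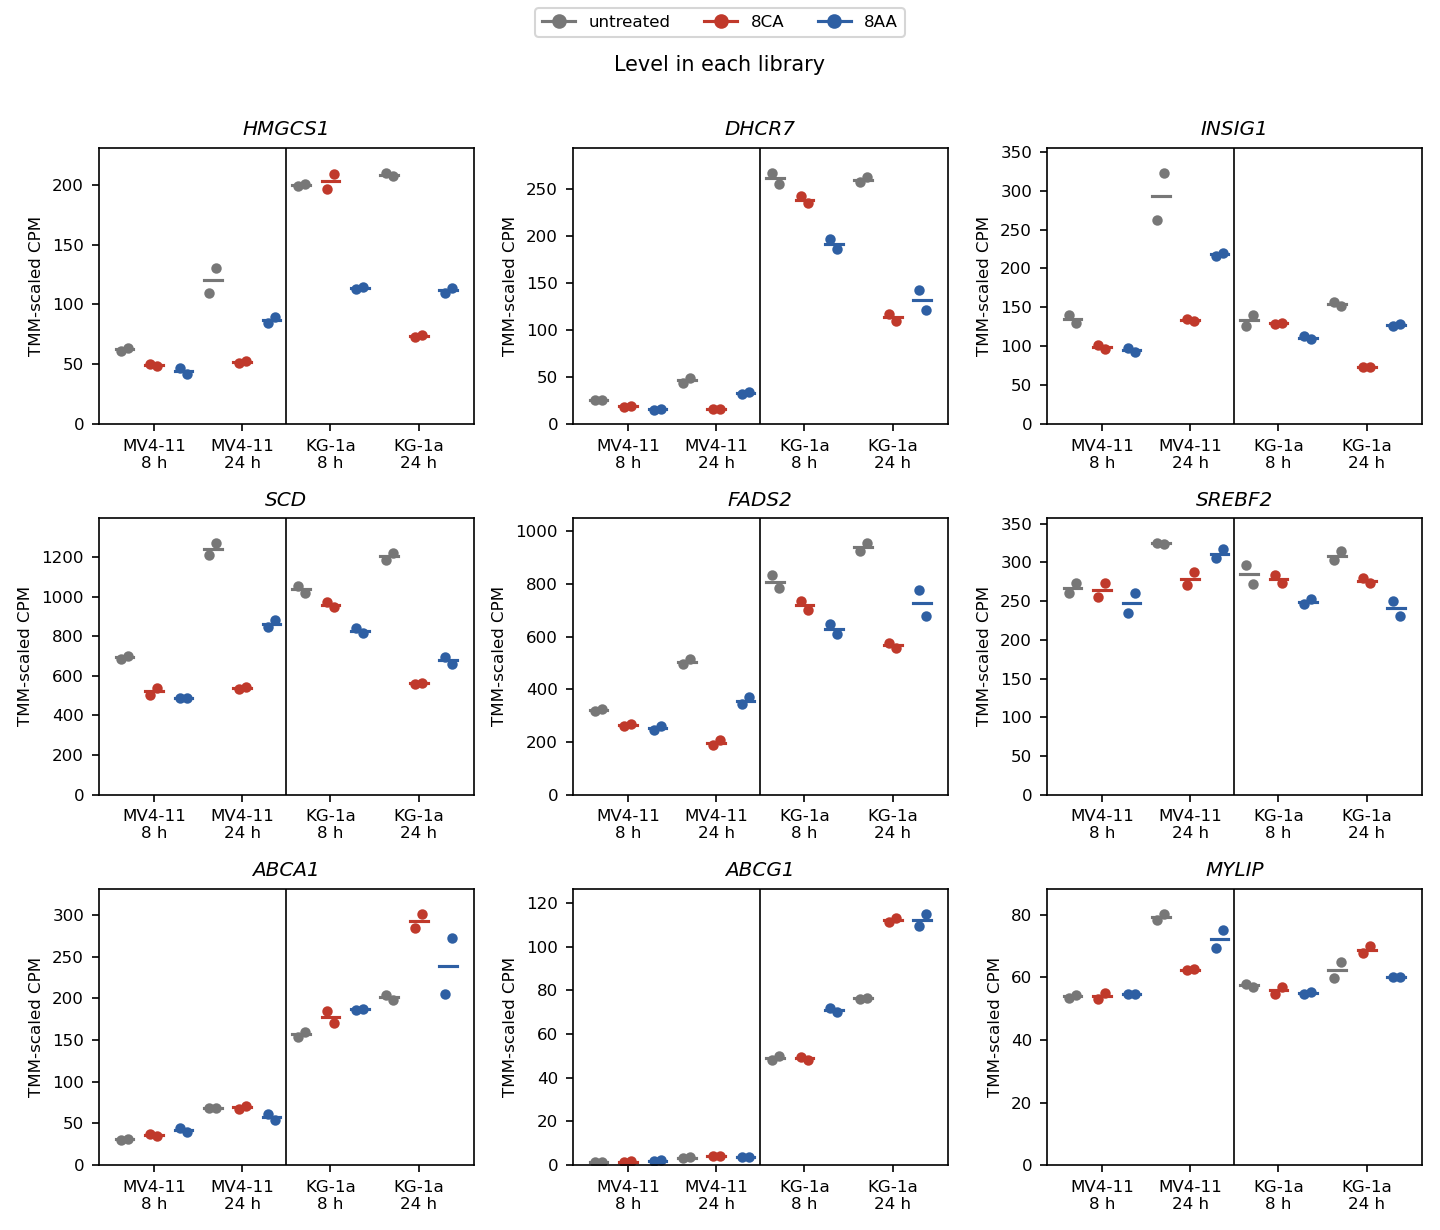
TMM-scaled CPM of 9 members in each of the 24 libraries, from a zero baseline, with points for the 2 libraries of a group, a line at their mean, and grey, red and blue for untreated, 8CA and 8AA. In MV4-11 the grey points of HMGCS1, DHCR7, INSIG1, SCD and FADS2 stand higher at 24 h than at 8 h and the red points stay near or below the 8 h grey level, while in KG-1a the grey points change by less and the red points drop at 24 h.

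All 4 transport and control genes were lower with 8CA at 24 h in MV4-11 (background: 22.7% lower). In KG-1a 3 were lower and SREBF1 was higher (background: 24% and 23.4%). INSIG1, itself an SREBP target, read 263 and 323 CPM in untreated MV4-11 at 24 h, 135 and 132 under 8CA and 216 and 220.3 under 8AA. In KG-1a, INSIG1 stood at 157 and 152 CPM untreated, 73.0 and 72.7 under 8CA and 126 and 129 under 8AA. The groups did not overlap in either line. For INSIG1 the log2 fold change with 8CA was -1.13 (SE 0.073, adjusted p = 1.7e-08) in MV4-11 and -1.08 (SE 0.054, adjusted p = 6.3e-10) in KG-1a, and with 8AA it was -0.43 (SE 0.071, adjusted p = 0.00037) and -0.28 (SE 0.052, adjusted p = 0.00033). STARD4, a cytosolic sterol carrier, read 14.0 and 18.1 CPM in untreated MV4-11, 8.10 and 7.77 under 8CA and 11.97 and 14.2 under 8AA. In KG-1a, STARD4 stood at 28.7 and 27.6 CPM untreated, 18.2 and 21.3 under 8CA and 22.1 and 28.6 under 8AA. Its 8CA libraries lay below the untreated ones in both lines, and its 8AA libraries overlapped them. STARD4 changed by -1.02 (SE 0.13, adjusted p = 1.4e-05) with 8CA in MV4-11 and by -0.51 (SE 0.11, adjusted p = 0.0011) in KG-1a. Its 8AA values were -0.29 (SE 0.12, adjusted p = 0.076) and -0.16 (SE 0.1, adjusted p = 0.21).

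SREBF2, which encodes the factor for the sterol branch, read 325 and 324 CPM in untreated MV4-11 at 24 h, 271 and 287 under 8CA and 305 and 317 under 8AA. In KG-1a, SREBF2 stood at 303 and 315 CPM untreated, 279.8 and 273 under 8CA and 251 and 230.3 under 8AA. Here 8AA was the lower drug in KG-1a and the higher one in MV4-11. For SREBF2 the log2 fold change with 8CA was -0.22 (SE 0.053, adjusted p = 0.0036) in MV4-11 and -0.16 (SE 0.053, adjusted p = 0.021) in KG-1a. The KG-1a call was lost in 4 of 13 alternative runs, among them those without untreated replicate B or either 8CA library. With 8AA the SREBF2 change was -0.06 (SE 0.053, adjusted p = 0.42) in MV4-11 and -0.36 (SE 0.053, adjusted p = 3.8e-05) in KG-1a. SREBF1, which encodes the factors for the fatty acid branch and is itself a target of LXR, read 169 and 159.8 CPM in untreated MV4-11, 126 and 132 under 8CA and 151 and 153 under 8AA. In KG-1a, SREBF1 stood at 88.6 and 90.2 CPM untreated, 104 and 99.5 under 8CA and 99.6 and 95.6 under 8AA. With 8CA it was below untreated in both MV4-11 libraries and above in both KG-1a libraries. For SREBF1 the log2 fold change with 8CA was -0.35 (SE 0.049, adjusted p = 3.9e-05) in MV4-11 and 0.18 (SE 0.059, adjusted p = 0.018) in KG-1a, and the latter missed the threshold without either untreated library or without 8CA replicate A.

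Fatty acid genes fell with the sterol genes. After 24 h of 8CA, 8 of 9 were lower in MV4-11 and 7 of 8 in KG-1a (background: 22.7% and 24% lower). After 8AA, 6 of 9 and 7 of 8 were lower (background: 15.3% and 26.6%). FADS2 read 497 and 514 CPM in untreated MV4-11 at 24 h, 189 and 206 under 8CA and 343 and 370.3 under 8AA. In KG-1a, FADS2 stood at 924 and 955.04 CPM untreated, 577 and 556 under 8CA and 779 and 679.5 under 8AA. For FADS2 the log2 fold change with 8CA was -1.36 (SE 0.052, adjusted p = 1.3e-10) in MV4-11 and -0.73 (SE 0.059, adjusted p = 1.2e-07) in KG-1a. SCD, the stearoyl-CoA desaturase, read 1211 and 1272 CPM in untreated MV4-11, 532 and 546 under 8CA and 845 and 883 under 8AA. In KG-1a, SCD stood at 1187 and 1224 CPM untreated, 559 and 565 under 8CA and 695 and 662 under 8AA. Its level with 8CA was 0.434 times untreated in MV4-11 and 0.466 times in KG-1a. For SCD the log2 fold change with 8CA was -1.20 (SE 0.045, adjusted p = 1.3e-10) and -1.10 (SE 0.043, adjusted p = 3.2e-11) in that order, and with 8AA -0.52 (SE 0.044, adjusted p = 1.6e-06) and -0.83 (SE 0.042, adjusted p = 1e-09).

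FADS1, the delta-5 desaturase, read 429.8 and 440.4 CPM in untreated MV4-11, 211 and 217 under 8CA and 321 and 329 under 8AA. In KG-1a, FADS1 stood at 422 and 423 CPM untreated, 331 and 324 under 8CA and 362 and 360.3 under 8AA. Its log2 fold change with 8CA was -1.02 (SE 0.04, adjusted p = 1.3e-10) in MV4-11 and -0.37 (SE 0.041, adjusted p = 3.3e-06) in KG-1a. FADS1 and FADS2 are neighbours with overlapping intervals on opposite strands, so their counts may share reads. ACACA, acetyl-CoA carboxylase, which commits acetyl-CoA to fatty acids, had another order of drugs. It read 273 and 265 CPM in untreated MV4-11, 206 and 220.2 under 8CA and 219 and 226 under 8AA. In KG-1a, ACACA stood at 337 and 333 CPM untreated, 245 and 253 under 8CA and 179 and 179 under 8AA. The drugs overlapped in MV4-11, and in KG-1a the 8AA libraries were the lowest. For ACACA the log2 fold change in KG-1a was -0.91 (SE 0.042, adjusted p = 4e-10) with 8AA and -0.43 (SE 0.042, adjusted p = 8.4e-07) with 8CA. The remaining fatty acid genes included FASN, lower by 0.88 and 0.89 with 8CA in MV4-11 and KG-1a, and ACLY, which makes cytosolic acetyl-CoA from citrate, lower by 0.62 and 0.59. ELOVL6 was lower by 0.43 in KG-1a, and its level in MV4-11 was at most 0.805 CPM. AACS, acetoacetyl-CoA synthetase, and ACSS2 fell by 0.44 and 0.39 in MV4-11, and AACS did not pass in KG-1a, at -0.15.

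At 8 h most called members were again lower, apart from KG-1a with 8CA, where none was called. In MV4-11 with 8CA, 13 members were lower and 0 higher (background: 5.77% and 4.58%), and the count was 8 without 8CA replicate B. With 8AA 17 were lower and 3 higher (background: 15.6% and 13.6%). In KG-1a with 8CA, edgeR called 0 members (background: 0.181% lower and 0.7% higher), 7 had an unadjusted p below 0.05, and DESeq2 also called 0. The same line with 8AA had 18 members lower and 2 higher (background: 18% and 16.7%). HMGCS1 read 199 and 200.5 CPM in untreated KG-1a at 8 h, 197 and 209 under 8CA and 113 and 115 under 8AA, so that the 8CA libraries spanned the untreated ones and those with 8AA lay well below. The log2 fold change of HMGCS1 with 8AA was -0.81 (SE 0.046, adjusted p = 1.3e-08), and that with 8CA was 0.02 with a 95% interval of -0.07 to 0.12. In MV4-11 at 8 h HMGCS1 read 61.1 and 63.9 CPM untreated, 50.1 and 48.7 under 8CA and 46.7 and 42.0 under 8AA. Both drugs lay below untreated there, with log2 fold changes of -0.34 (SE 0.076, adjusted p = 0.011) and -0.50 (SE 0.077, adjusted p = 0.00018). SQLE had the largest decrease in MV4-11 at 8 h, -0.49 with 8CA and -0.70 with 8AA. SCD changed by -0.41 and -0.50 in MV4-11 and by -0.32 with 8AA in KG-1a. Members lower at both times numbered 13 with 8CA and 16 with 8AA in MV4-11 (background: 4.05% and 8.29% of all genes) and 17 with 8AA in KG-1a (background: 13%).

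The analogs were then set directly against each other at the same dose and time, in 4 comparisons, one for each line and time, with p-values adjusted over all genes within each. At 8 h the 8AA libraries were the lower ones: in MV4-11 4 members (SQLE, FASN, ACACA and FADS1) were lower with 8AA than with 8CA and 0 higher (background: 3.7% and 2.96%), and in KG-1a 14 were lower and 1, ABCG1, higher (background: 15.8% and 14.7%). The MV4-11 count of 4 was 1 without 8CA replicate B and 2 without 8AA replicate A. At 24 h the order turned. In MV4-11 29 members were higher with 8AA and 1, ABCA1, lower (background: 11.7% and 9.48%), with a median log2 difference of 0.48. In KG-1a 19 were higher and 4 lower, namely SREBF2, ACACA, ABCA1 and MYLIP (background: 20.3% and 21.7%), with a median of 0.23. Without replicate A or replicate B of the KG-1a 8AA pair, 19 or 20 were higher and 5 or 4 lower. Members that were below 8CA at 8 h and above it at 24 h numbered 3 of 34 in MV4-11 (SQLE, FASN and FADS1), against 0.453% of all genes, and 8 of 33 in KG-1a (HMGCS1, SQLE, CYP51A1, DHCR7, INSIG1, SCD, FADS1 and FADS2), against 0.354%. HMGCS1 in KG-1a differed by -0.83 (SE 0.046, adjusted p = 4.8e-09) at 8 h and by 0.60 (SE 0.049, adjusted p = 1.5e-07) at 24 h. DHCR7 in MV4-11 differed by -0.26 at 8 h, a value that missed the threshold after adjustment, with an unadjusted 95% interval of -0.44 to -0.07, and by 1.06 (SE 0.08, adjusted p = 2.5e-07) at 24 h. For LSS in MV4-11 at 8 h the difference between the analogs was -0.01 with an interval of -0.16 to 0.14, and for ACACA at 24 h 0.06 with an interval of -0.05 to 0.17.

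**Figure D3:**
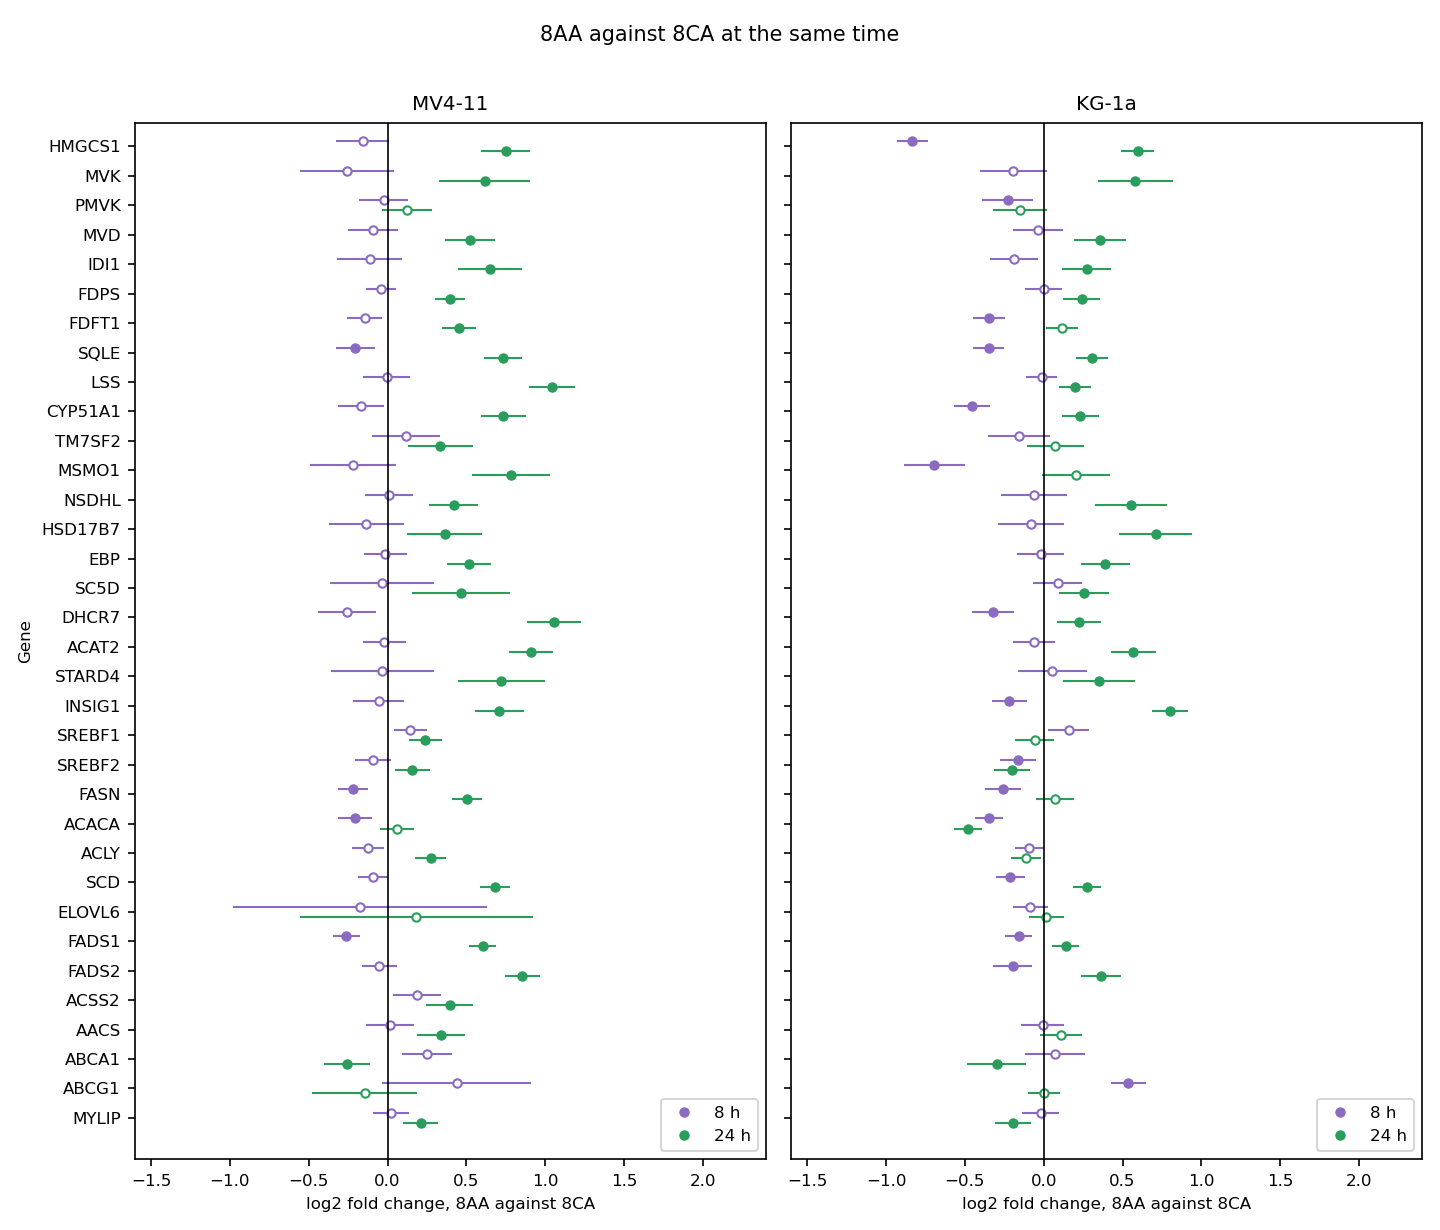
Log2 fold change of 8AA against 8CA with its 95% confidence interval for each member, at 8 h (purple) and 24 h (green), in MV4-11 (left) and KG-1a (right), filled where the adjusted p was below 0.05. Most purple points lie at or left of 0 and most green points right of it, with HMGCS1 in KG-1a at -0.83 and 0.60.

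The change between the responses at 8 h and 24 h was tested for each drug. Each response was taken against untreated cells of its own time, so any change of those cells enters the difference. In untreated MV4-11 cells 28 of 34 members were higher at 24 h than at 8 h, and in KG-1a 7 of 33. The 8CA response was lower at 24 h than at 8 h for 26 members in MV4-11 and higher for 0 (background: 9.83% and 6.48%), and for 24 and 1 in KG-1a (background: 12.7% and 11.2%). The 8AA response was lower at 24 h for 2 members, FDPS and ABCA1, and higher for 1, SQLE, in MV4-11 (background: 2.12% and 2.51%), and the count was 1 without any of 4 libraries, untreated replicate B at 8 h, either untreated replicate at 24 h or 8AA replicate B at 24 h. In KG-1a it was lower for 7 and higher for 1 (background: 10.7% and 7.64%), and for 16 and 2 without 8AA replicate A at 24 h. For HMGCS1 the 24 h response to 8CA minus the 8 h response was -0.88 (SE 0.1, adjusted p = 6.9e-05) in MV4-11 and -1.52 (SE 0.066, adjusted p = 9.9e-10) in KG-1a on the log2 scale. The same difference for 8AA was 0.03 with an interval of -0.19 to 0.25 in MV4-11 and -0.09 with -0.23 to 0.05 in KG-1a. SQLE in MV4-11 had a smaller decrease with 8AA at 24 h than at 8 h, with a difference of 0.35 (SE 0.08, adjusted p = 0.023).

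Most tests of the LXR targets against untreated cells gave no call. More of the calls were higher than lower, and several of the higher ones were lost in alternative runs. ABCA1, which exports cholesterol to apolipoprotein A-I, read 68.3 and 68.1 CPM in untreated MV4-11 at 24 h, 67.2 and 71.2 under 8CA and 61.7 and 53.8 under 8AA. In KG-1a, ABCA1 stood at 205 and 198 CPM untreated, 285 and 302 under 8CA and 205 and 273 under 8AA. In KG-1a both 8CA libraries were above untreated, while 8AA replicate A was near the untreated level and replicate B well above it. For ABCA1 the log2 fold change with 8CA was 0.54 (SE 0.089, adjusted p = 0.00014) in KG-1a, and in MV4-11 it was 0.02 with an interval of -0.12 to 0.17. The 8AA value in KG-1a was 0.24 (SE 0.089, adjusted p = 0.032) and was 0.02 without 8AA replicate B. This call was lost in 5 of 13 alternative runs, among them those without 8AA replicate B or either untreated library. In MV4-11 8AA gave -0.24 (SE 0.069, adjusted p = 0.016) at 24 h, a call lost in 5 of 13 alternative runs. Among them were those without 8AA replicate B or either untreated library. At 8 h in MV4-11 the 8AA value was 0.44 (SE 0.076, adjusted p = 0.00045), where ABCA1 read 30.6 and 31.7 CPM untreated and 44.8 and 40.1 with 8AA.

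ABCG1, which exports sterols to high-density lipoprotein, read 76.1 and 76.5 CPM in untreated KG-1a at 24 h, 111 and 113 under 8CA and 109.5 and 115 under 8AA. Both drugs were above untreated and overlapped each other. For ABCG1 the log2 fold change was 0.56 (SE 0.05, adjusted p = 3.7e-07) with 8CA and 0.56 (SE 0.05, adjusted p = 2.2e-07) with 8AA. At 8 h in KG-1a, ABCG1 stood at 47.8 and 50.1 CPM untreated, 49.6 and 47.9 under 8CA and 71.7 and 69.8 under 8AA, with a log2 difference between the analogs of 0.54 (SE 0.053, adjusted p = 3.1e-06). ABCA1 rose with 8AA at 8 h in KG-1a by 0.25 (SE 0.091, adjusted p = 0.042). That call was lost in 6 of 13 alternative runs, among them those without any 1 of the 4 libraries compared. In MV4-11 ABCG1 was at 1.15 to 4.35 CPM, and it rose with 8AA at 8 h by 0.80 (SE 0.24, adjusted p = 0.018). That call was lost in 4 of 13 alternative runs, among them those without either untreated library or without 8AA replicate B. MYLIP, a ubiquitin ligase that marks lipoprotein receptors for degradation, read 78.4 and 80.4 CPM in untreated MV4-11 at 24 h, 62.3 and 62.6 under 8CA and 69.3 and 75.2 under 8AA. In KG-1a, MYLIP stood at 59.8 and 64.8 CPM untreated, 67.9 and 69.9 under 8CA and 60.2 and 60.1 under 8AA. With 8CA it was lower in MV4-11, with a log2 fold change of -0.35 (SE 0.052, adjusted p = 7e-05), and higher in KG-1a, with 0.15 (SE 0.055, adjusted p = 0.038). The KG-1a call was lost in 6 of 13 alternative runs, among them those without untreated replicate A (0.07) or either 8CA library. With 8CA at 24 h the 3 targets ran from 0.15 to 0.56 in KG-1a, beside a median of -0.74 for the 18 sterol enzymes. In MV4-11 the 3 targets ran from -0.35 to 0.27 with 8CA, with 1 called lower and 0 higher, beside a median of -0.83.

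The untreated MV4-11 cells were not a constant reference. Between 8 h and 24 h without drug, 28 of 34 members rose in MV4-11 and 0 fell (background: 3.38% of genes higher), with a median log2 change of 0.47. In KG-1a 7 of 33 rose and 0 fell (background: 2.49%), and 2 or 3 rose without any 1 of the 4 untreated libraries. HMGCS1 in MV4-11 went from 61.1 and 63.9 to 109.9 and 131 CPM, a log2 change of 0.94 (SE 0.072, adjusted p = 1.4e-06). INSIG1 went from 139.7 and 130.2 to 263 and 323 CPM, 1.12 (SE 0.073, adjusted p = 2.1e-07), and SCD from 686 and 701 to 1211 and 1272 CPM, 0.84 (SE 0.045, adjusted p = 4.8e-08). The LXR targets rose with them: ABCA1 went from 30.6 and 31.7 to 68.3 and 68.1 CPM, 1.13 (SE 0.074, adjusted p = 2.1e-07), and ABCG1 from 1.15 and 1.15 to 3.19 and 3.66 CPM, 1.56 (SE 0.21, adjusted p = 0.00046). For each of these genes the later libraries lay above the earlier ones without overlap. In KG-1a the genes that rose were INSIG1, SREBF1, SCD, FADS2, AACS, ABCA1 and ABCG1, by 0.21 to 0.64 on the log2 scale.

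The treated MV4-11 cells of 24 h were therefore also set against untreated cells of 8 h, a comparison chosen after these values were seen. With 8CA, 19 members stayed lower and 4 were higher (background: 26.1% and 26.1%), the 4 being SREBF1 and the LXR targets. With 8AA, 1 member, FDPS, was lower and 21 were higher (background: 20.1% and 20.8%). HMGCS1 with 8AA at 24 h was above the untreated 8 h level by 0.48 (SE 0.073, adjusted p = 0.0001) and with 8CA differed from it by -0.27 (SE 0.075, adjusted p = 0.0063). INSIG1 with 8CA was not called, -0.02 with an interval of -0.17 to 0.14, and FADS2 was lower, -0.70 (SE 0.052, adjusted p = 4.1e-08). For ABCA1 the 8CA value was 1.15 (SE 0.073, adjusted p = 8.2e-09) and the 8AA value 0.89 (SE 0.075, adjusted p = 4.5e-07).

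**Figure D4:**
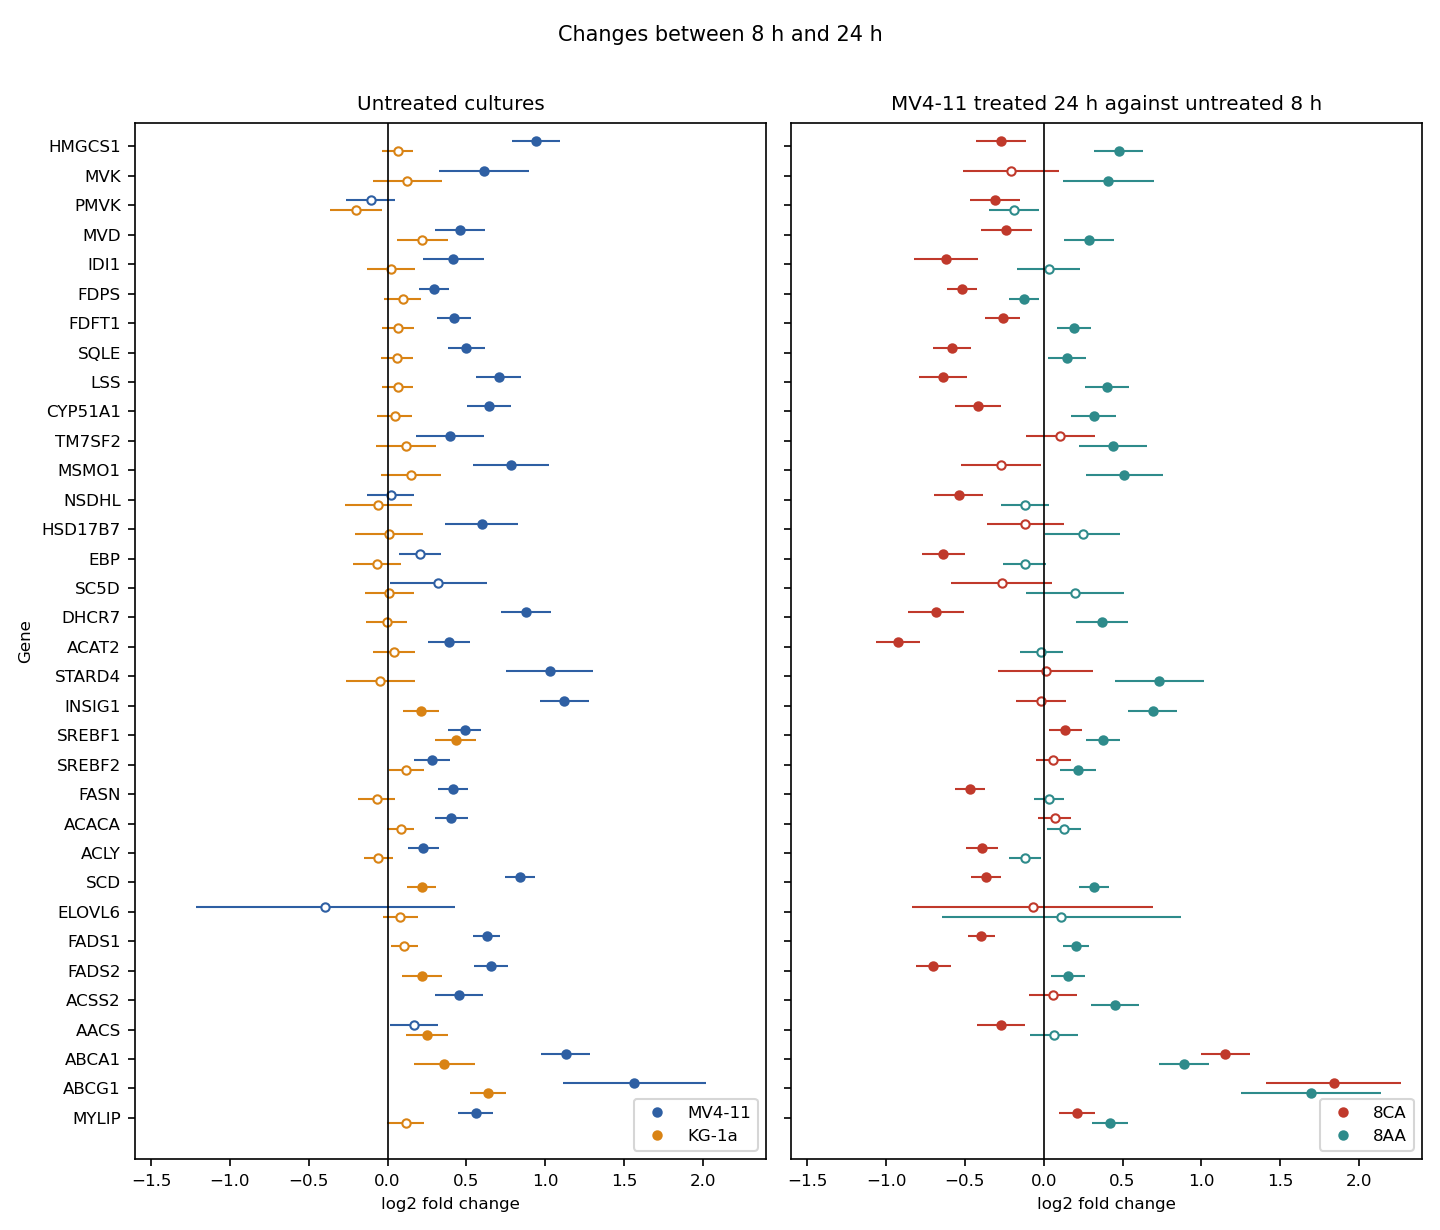
Log2 fold change with its 95% confidence interval for each member, left for untreated cells at 24 h against 8 h in MV4-11 (blue) and KG-1a (orange), right for MV4-11 treated for 24 h with 8CA (red) or 8AA (teal) against untreated MV4-11 at 8 h, filled where the adjusted p was below 0.05. On the left most blue points lie right of 0 and most orange points near it, and on the right most red points of the synthesis genes lie left of 0 and the teal points at or right of it, with ABCA1 and ABCG1 far right for both drugs.

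The size of the 24 h response was compared between the lines in the fit of all 24 libraries. Each response was taken against untreated cells of 24 h. In these reference cells 28 of 34 members in MV4-11 and 7 of 33 in KG-1a were higher than at 8 h. The part of that rise in the line differences was not tested. With 8CA, 10 members had a lower log2 fold change in MV4-11 than in KG-1a and 1, HMGCS1, a higher one (background: 5.44% and 5.76%). That count of 11 ran from 6 to 12 when 1 library was left out, and lay at 6 or 7 without any of 6 libraries, MV4-11 untreated replicate B, KG-1a untreated replicate A or B, MV4-11 8CA replicate A or B and KG-1a 8CA replicate A. FADS1, with a difference of -0.63 (SE 0.055, adjusted p = 2.4e-08), FADS2 with -0.60 (SE 0.084, adjusted p = 3.1e-05) and LSS with -0.55 (SE 0.083, adjusted p = 8.1e-05) fell further in MV4-11. For SREBF1, -0.51 (SE 0.078, adjusted p = 9.7e-05), and MYLIP, -0.47 (SE 0.073, adjusted p = 0.00012), the 2 lines had opposite signs. With 8AA, 3 members had a lower and 11 a higher log2 fold change in MV4-11 than in KG-1a (background: 8.51% and 13.8%), and the split was 7 and 7 without KG-1a 8AA replicate B and 3 and 13 without replicate A. ACACA differed by 0.65 (SE 0.066, adjusted p = 1.9e-07) and DHCR7 by 0.49 (SE 0.098, adjusted p = 0.00067), both falling further in KG-1a.

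**Figure D5:**
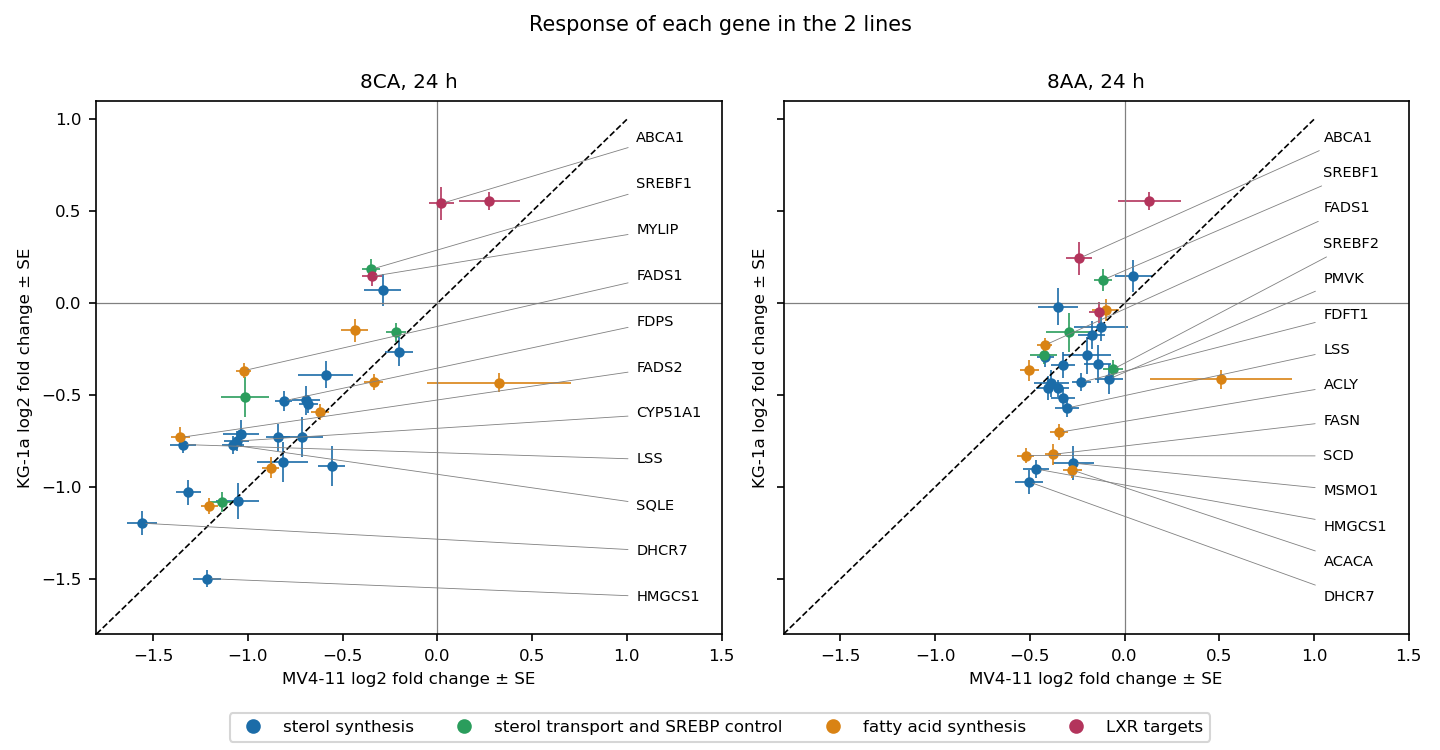
Log2 fold change ± SE in MV4-11 (horizontal) and KG-1a (vertical) for each member tested in both lines, after 24 h of 8CA (left) or 8AA (right), coloured by role, with a dashed line of equal change and names where the lines differed at an adjusted p below 0.05. With 8CA the named desaturases FADS1 and FADS2 lie above the line and HMGCS1 below it, and with 8AA the named synthesis genes HMGCS1, DHCR7, SCD, FASN, MSMO1 and ACACA lie below it.

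Of 27 further genes for SREBP processing, sterol handling, fatty acid elongation and LXR signalling, tests covered 26 in MV4-11 and 23 in KG-1a. After 24 h of 8CA, 11 (42.3%) were lower and 2 (7.69%) higher in MV4-11, where 22.7% of all genes were lower and 21.2% higher, and 11 (47.8%) were lower and 4 (17.4%) higher in KG-1a, against 24% and 23.4%. SLC25A1, which exports the citrate used for acetyl-CoA, had the largest decrease, -0.76 in MV4-11 and -0.64 in KG-1a, and ELOVL1, which elongates long saturated chains, changed by -0.58 and -0.50. SCAP, the escort of SREBP, changed by 0.04 and -0.03, and neither value passed the test. MBTPS1, the first protease that cleaves SREBP, was lower by 0.32 and 0.27. NR1H2, one of the LXR genes, changed by 0.06 and 0.15, again without passing, and LPCAT3, an LXR target that remodels phospholipids, was lower by 0.37 and 0.30. With 8AA at 24 h, 5 (19.2%) were lower and 1 (3.85%) higher in MV4-11, against 15.3% and 13.9% of all genes, and 8 (34.8%) were lower and 6 (26.1%) higher in KG-1a, against 26.6% and 25.4%, so that the lower shares with 8AA were nearer to those of all genes. MBTPS2, the second SREBP protease, was lower by 0.68 with 8AA in KG-1a.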

How the data were processed

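RNA was sequenced from 24 libraries of MV4-11 and KG-1a cells, and the authors deposited whole-number read counts per gene with gene positions and exon lengths. The submitters' processing notes name Trimmomatic, STAR 2.6.0, HTSeq 0.11.1, edgeR and the builds hg19 and hg38 without a role. Intervals in the table overlapped GENCODE release 29 (GRCh38) intervals for 14.1% of genes matched by symbol and for 2 of the 34 members, so no coordinate of the table is printed. Strand use is not given in the sources used here, and reads of overlapping genes and pseudogenes may be shared. The hours of the untreated libraries came from the titles.

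Genes were filtered with filterByExpr (minimum count 10) and scaled by TMM, and edgeR 4.0.16 (R 4.3.3) quasi-likelihood tests were fitted to the 12 libraries of a line, with 1 coefficient per group, or to all 24 libraries for differences between lines. P-values were adjusted by the Benjamini-Hochberg method over all genes tested, with a threshold of 0.05, and tests are two-sided. DESeq2 1.42.0 was an alternative, beside other scalings, filters, library sets, a replicate block and leaving out each library. Simulated data with known changes were used to test these fits. With 2 libraries per group, precision rests on the spread shared across groups and genes (biological coefficient of variation 0.0422 in MV4-11 and 0.0418 in KG-1a).

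The members, lists and rules were chosen with earlier results of these data known. Library values are given for STARD4, INSIG1, SREBF1, SREBF2, the LXR targets and, in each synthesis group, the 4 genes of largest change among those called with a mean of at least 10 CPM. Exon length came from the table. Promoter sequences are RefSeq GRCh38.p14. Values of 1 further pathway gene are not reported here.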

Additional observations from a re-analysis of the deposited data

Results flagged for a closer look

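Several results were marked because the same contrast differed between times or lines by a test of the difference itself. The 8CA response differed between 8 h and 24 h for 26 MV4-11 and 25 KG-1a members, while for 8AA these numbers were 3 and 8. Of all genes, 16.3% and 23.9% differed with 8CA and 4.63% and 18.3% with 8AA. The 8AA numbers were 1 to 3 in MV4-11 and 6 to 18 in KG-1a when 1 library was left out. The 24 h responses of the lines differed for 11 members with 8CA and 14 with 8AA, beside 11.2% and 22.3% of all genes. Beside these, the 8AA response of ABCA1 in MV4-11 at 24 h minus that at 8 h was -0.68 (adjusted p = 0.0024), and the MV4-11 response of this gene to 8AA at 24 h less the KG-1a response was -0.46 (adjusted p = 0.0086), a line difference that includes the pair of KG-1a libraries that read 205 and 273 CPM. With 8CA at 24 h the 2 lines had called changes of opposite sign for MYLIP, with a difference of -0.47 (adjusted p = 0.00012), and for SREBF1, with -0.51 (adjusted p = 9.7e-05). The KG-1a call was lost in 6 of 13 alternative runs for MYLIP and in 3 of 13 for SREBF1. No cause of these differences was tested.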

How the results depend on the processing

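Of the 159 calls of a member in the 8 comparisons with untreated cells, 128 stayed past the threshold in every alternative run and 31 missed it in at least 1, most often LSS in KG-1a with 8AA at 8 h, MVK in KG-1a with 8AA at 24 h, PMVK in MV4-11 with 8CA at 24 h and FADS1 in MV4-11 with 8CA at 8 h. None of their 2067 alternative values changed sign. Of 249 alternative counts, 227 were within 1.5 times the main count. For KG-1a with 8CA at 8 h, the count of 0 became 1 with no filter on low counts and 3 in a fit of the 6 libraries of that line and time. When 1 library was left out, the counts ran from 8 to 11 (main 13) for MV4-11 with 8CA at 8 h, from 1 to 4 (main 4) for 8AA against 8CA in MV4-11 at 8 h, from 1 to 3 (main 3) and from 6 to 18 (main 8) for the time difference of 8AA in MV4-11 and KG-1a, from 6 to 12 (main 11) for the line difference with 8CA, and from 2 to 3 (main 7) for untreated KG-1a at 24 h against 8 h. The cause of these moves was not tested, apart from the loss of a library.

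Whether same-lettered libraries were paired was not settled. Across genes, the A minus B differences were correlated between the groups of a line. In MV4-11 these correlations ran from -0.357 to 0.586, with a median of 0.36 and 10 of 15 pairs of groups above 0.1. In KG-1a they ran from -0.287 to 0.498, with a median of 0.0815 and 7 of 15 above 0.1. The main tests hold no term for the letter. With the letter as a replicate block, the counts became 8 (main 4) for 8AA against 8CA in MV4-11 at 8 h and 5 (main 3) for the time difference of 8AA in MV4-11, and the other counts stayed within 1.5 times. With scaling by library size alone, the median log2 fold change of all genes was 0.108 (main 0.0134) in KG-1a with 8AA at 24 h and -0.103 (main -0.0103) between the untreated lines. This scaling moved the share of lower calls among all genes called from 55.8% to 38.3% (8CA) and from 53.4% to 38.8% (8AA) in MV4-11 at 8 h, and from 51.8% to 41.1% and from 52.4% to 36.2% at 24 h. In KG-1a this share moved from 51.9% to 41.8% (8AA at 8 h), from 51.2% to 35.5% (8AA at 24 h), from 51.6% to 36.4% (8AA against 8CA at 24 h), from 58.3% to 41.7% (time difference of 8AA) and from 44.2% to 28.3% (untreated 24 h against 8 h), and for the line difference with 8AA from 38.2% to 54%. The members kept their majority direction there, with 21 lower and 4 higher in KG-1a with 8AA at 24 h. Low counts limit ELOVL6 and ABCG1 in MV4-11 and ACSS2 in KG-1a.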
